A study of Mus musculus with 6 samples.

Results

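The mitochondrially encoded genes were examined in 6 liver tumors of mice, 3 of Prmt3 f/f and 3 of Prmt3 LKO mice, measured by RNA-seq. Members were all genes of the deposited table whose symbol starts with "mt-", and the rule did not use expression values. It found 13 of the 34745 genes listed, and these are the 13 protein-coding genes of the mouse mitochondrial DNA (mtDNA). The rRNAs and tRNAs of mtDNA were not analysed here.

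All mice carried floxed alleles of Prmt3, which encodes protein arginine methyltransferase 3. Prmt3 LKO mice carried Alb-Cre in addition, so that Prmt3 is deleted in cells that use the albumin promoter, and other cells of the tumor keep the gene. The sample labels call the Prmt3 f/f tumors wild type and the Prmt3 LKO tumors knockout. Mice of both groups received DEN (diethylnitrosamine, a liver carcinogen) at 25 mg/kg when 2 weeks old, then 10% CCl4 (carbon tetrachloride, a liver toxin) at 0.5 ml/kg from 6 weeks of age, and tumors were taken at 26 weeks. The labels do not say whether each tumor came from a different mouse, so p-values measure the spread between these tumors.

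Each mitochondrion holds copies of a small circular genome that is transcribed on both strands into long precursors, from which tRNAs are cut out to release rRNAs and mRNAs. The proteins it encodes are core subunits of the respiratory chain: parts of complex I, complex III and complex IV, and the membrane part of ATP synthase (complex V). All mRNAs but mt-Nd6 come from the heavy-strand transcript, 2 pairs of genes, mt-Atp8 with mt-Atp6 and mt-Nd4l with mt-Nd4, are kept together on a shared mRNA, and the other subunits of each complex are encoded in the nucleus. Hepatocytes hold many mitochondria, and mtDNA transcripts are abundant in liver RNA.

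Between 18440244 and 27976598 reads were counted per tumor. Hepatocyte markers were present in all tumors, with the summed level of the 11 of 12 listed genes between 166203 and 230216 CPM (counts scaled by library size and TMM). Prmt3 itself was at 6.60, 8.49 and 10.2 CPM in the f/f tumors and at 2.80, 2.03 and 3.82 CPM in the LKO tumors. Tumor f/f 7 stood apart, with a sum of 17.0 CPM over 8 muscle and heart markers against at most 1.59 CPM in any other tumor, and with 88284 counts of the secreted phosphoprotein gene Spp1 against at most 20966. Spp1 is 1 of 6 listed cholangiocyte markers. Of the others, Krt7 was also highest in f/f 7, at 69 counts against at most 66. Krt19, Epcam, Sox9 and Cftr were each highest in another tumor. The summed level of 15 leukocyte markers was 298 to 348 CPM in the f/f tumors and 188 to 217 CPM in the LKO tumors, and that of 12 kidney markers was 3.75 to 5.06 CPM and 9.47 to 14.1 CPM. No gene of the leukocyte and kidney lists was at 0 in all tumors. The part of these differences in the results that follow was not tested, and results that rest on f/f 7 are given with and without it.

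Several of these genes share sequence with each other or with the nucleus, which bears on how reads can be assigned. Sequences are those of GENCODE M21 transcripts (GRCm38), whose coordinates matched the deposited ones for all 20 genes compared, the 13 genes and 7 nuclear copies. The start of mt-Atp6 is shown because this gene carries the widest range between tumors among the 13. Its capitals mark the 43 bases that it shares with the end of mt-Atp8 on the same strand, at chrM:7927-7969. The stretch of mt-Atp6 lies at chrM:7927-8076 on the plus strand, and that of Gm10925, an annotated nuclear copy, at chr1:24614502-24614651 on the minus strand.
mt-Atp6: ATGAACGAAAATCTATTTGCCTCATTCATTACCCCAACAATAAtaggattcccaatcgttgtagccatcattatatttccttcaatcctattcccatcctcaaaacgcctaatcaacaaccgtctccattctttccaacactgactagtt
Gm10925: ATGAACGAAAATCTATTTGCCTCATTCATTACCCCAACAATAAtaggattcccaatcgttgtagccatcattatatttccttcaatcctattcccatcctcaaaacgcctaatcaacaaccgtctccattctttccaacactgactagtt
The 2 sequences were identical over all 678 bases of Gm10925, which lacks only the last bases of the 681 of mt-Atp6.

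Gm10925 is 1 of 7 copies that lie side by side on chromosome 1, at chr1:24611535-24616197, and that cover the mtDNA from within mt-Co1 to within mt-Nd4. The copies of mt-Co2, mt-Atp6, mt-Co3, mt-Nd4l and mt-Nd4 had 0 mismatches in the aligned bases. The copy of mt-Nd3, Gm28438, had 1, T3C, with the mtDNA base first and positions counted from 1 at the 5′ end of the gene. The copy of mt-Co1, Gm29216, aligned over its whole length without gaps, had 6, all at its first bases, T1056A, C1057T, A1059G, A1060G, C1062A and A1066T. A local alignment of this pair began only at base 1063 of mt-Co1 and had 1 mismatch over 483 bases. Whether the bases of Gm29216 before that point come from mtDNA was not tested. The start of this copy, at chr1:24616175-24616197 on the minus strand, is shown beside the aligned bases of mt-Co1, at chrM:6381-6403 on the plus strand, with the mismatched bases in capitals, because it is where the annotated copy begins.
mt-Co1: ggTCtAAcCggaAttgttttatc
Gm29216: ggATtGGcAggaTttgttttatc
Of all windows of 150 bases, the length of a read, 99.4% of those of mt-Atp6 and of mt-Co2, 99.8% of those of mt-Co3, 98.0% of those of mt-Nd4l and 97.0% of those of mt-Nd3 were also found in the copy. The share was 59.2% for mt-Nd4 and 23.6% for mt-Co1, whose copies are shorter than the gene. How the authors treated reads with several alignments is not given in the sources used here, so counts of these 7 genes and of their copies are uncertain to that extent. The same holds for mt-Atp8, which lies inside the copied block: Gm10925 holds its last 43 bases, and 233 bases of chromosome 1 without a listed copy part Gm10925 from Gm28661, as many as part the matching places of mtDNA. The sequence of that interval was not analysed here. For mt-Nd1, mt-Nd6 and mt-Cytb no other transcript of the annotation matched over at least 100 bases. Other matches, of mt-Nd2, mt-Nd5 and a further one of mt-Co2, were to genes counted at most 48 times in a tumor, and Gm13340, which matched mt-Co1 at 97.6% identity, was counted 1936 to 3938 times.

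A further overlap lies between strands. The last 14 bases of mt-Nd6, at chrM:13552-13565, overlap the end of mt-Nd5 on the opposite strand. The last 60 bases of each gene are shown 5′ to 3′ with the overlap in capitals, because it is the place where the light-strand mRNA and a heavy-strand mRNA meet. They lie at chrM:13552-13611 on the minus strand for mt-Nd6 and at chrM:13506-13565 on the plus strand for mt-Nd5.
mt-Nd6: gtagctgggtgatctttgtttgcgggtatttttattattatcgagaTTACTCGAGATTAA
mt-Nd5: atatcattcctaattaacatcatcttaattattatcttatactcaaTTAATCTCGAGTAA
Whether the counting used strand is not given in the sources used here. Without strand, reads of mt-Nd6 and of heavy-strand RNA antisense to it cannot be told apart.

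The 13 genes together took 6.40% of the total count in f/f 7, 4.15% in f/f 66 and 4.18% in f/f 71. In the LKO tumors they took 3.90% in LKO 92, 3.80% in LKO 93 and 4.93% in LKO 94. Tumor f/f 7 carried the largest share, LKO 94 the next, and the groups overlapped. The mean was 4.91% ± 1.29 (SD, n = 3) in f/f tumors and 4.21% ± 0.625 (SD, n = 3) in LKO tumors, a difference of -0.70 percentage points that was within the spread between tumors. Without f/f 7 the difference was 0.046 percentage points. The count behind each share was between 719960 and 1346714, so that counting error was small, with a 95% Wilson interval of 6.39% to 6.41% in f/f 7. Reads are not independent molecules, and this and later intervals cover counting error only. In bulk tumors, a change in the share of cells rich in mitochondria and a change in mtDNA transcripts per cell cannot be told apart.

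**Figure D1:**
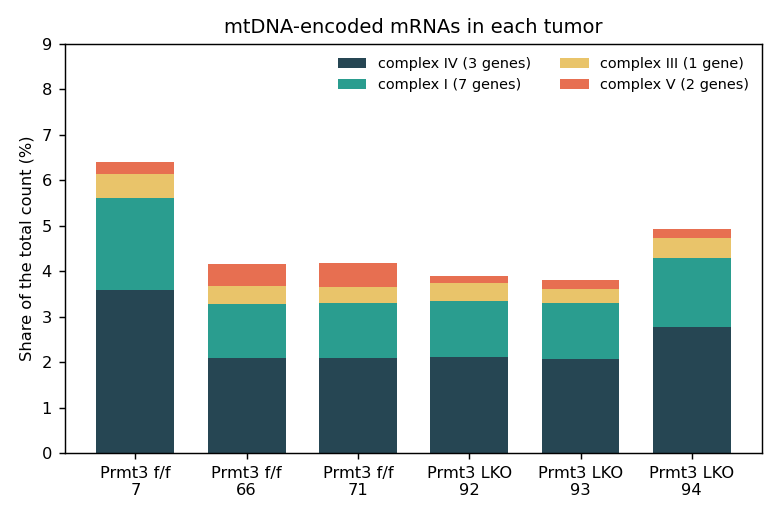
Share of the total count (%) taken by mtDNA-encoded mRNAs in each of the 6 tumors, with bar segments for the genes of complex IV, I, III and V. The whole bar reaches 6.40% in f/f 7 and 3.80% to 4.93% in the others, and the complex V segment is thicker in f/f 66 and f/f 71 than in the other 4 tumors.

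By complex, the 3 genes of complex IV took the largest part of the mtDNA-encoded counts, between 49.9% and 56.4% in a tumor. The 7 genes of complex I took 29.0% to 32.0%, and mt-Cytb, the cytochrome b subunit of complex III, took 8.16% to 10.1%. The 2 genes of complex V took 11.6% in f/f 66 and 12.4% in f/f 71, but 4.12% in f/f 7. In the LKO tumors complex V took 4.27%, 4.78% and 4.17%. In complex V, f/f 66 and f/f 71 thus stood far from the other 4 tumors. Without mt-Atp6, the share of complex V, then mt-Atp8 alone, was 2.82% to 3.93% and the groups overlapped.

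Per length, in FPKM, mt-Co1, the catalytic core of cytochrome c oxidase, had the highest level, with a mean of 10563 FPKM over the 6 tumors and a range of 8666 to 15378 FPKM. It was among the 4 highest genes of the whole table in every tumor. The order by mean FPKM went on with mt-Atp8, mt-Co3, mt-Co2, mt-Nd1, mt-Nd2, mt-Cytb, mt-Nd4, mt-Nd4l, mt-Atp6, mt-Nd5, mt-Nd3 and mt-Nd6. Neighbours in this order had overlapping ranges down to mt-Nd5. The ranges of mt-Nd5, mt-Nd3 and mt-Nd6 lay apart, at 983 to 1809 FPKM, 426 to 732 FPKM and 4.21 to 25.5 FPKM. Within a tumor, mt-Co1 was above mt-Atp8 and mt-Atp8 above mt-Co3 in 6 of 6 tumors, whereas mt-Co3 and mt-Co2 changed order, with mt-Co3 higher in 3 of 6. mt-Atp6 was at 4937 FPKM in f/f 66 and 5408 FPKM in f/f 71, above mt-Co3 of the same tumors, and at 738 to 1255 FPKM in the other 4 tumors, below mt-Nd5.

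**Figure D2:**
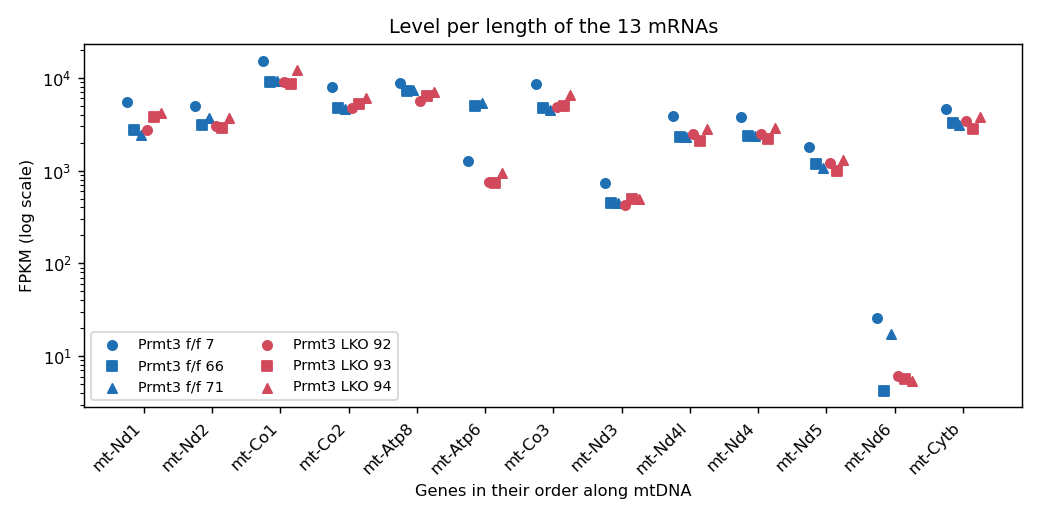
Level of the 13 mRNAs in FPKM (log axis) in each tumor, with genes in their order along mtDNA, blue for Prmt3 f/f and red for Prmt3 LKO tumors. mt-Co1 lies highest in every tumor, mt-Nd6 lowest, and mt-Atp6 splits into f/f 66 and f/f 71 at 4937 and 5408 FPKM and 4 tumors at or below 1255 FPKM.

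Between groups, all 13 genes passed the filter on low counts, and 0 of 13 were called by the quasi-likelihood test of edgeR at a Benjamini-Hochberg adjusted p under 0.05 with at least a 2-fold change, against 0% of the 13892 genes tested. DESeq2 called 1 of 13, mt-Atp6, against 0.374% of all genes, and limma-voom called 0. At an unadjusted p under 0.05 in edgeR, 2 of 13, mt-Atp6 and mt-Nd6, were lower in LKO tumors, against 4.37% of all genes, and 0 were higher, against 2.2%. The log2 fold change of LKO over f/f was below 0 for 12 of 13 genes, against 49.9% of all genes, with a median of -0.16 against 0.00. Both the count and the sign of the median depended on f/f 7: without it 4 of 13 were below 0, against 51.3% of all genes, and the median was 0.072 against -0.0092. The genes are cut from shared precursors, so their directions are not independent of each other.

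**Figure D3:**
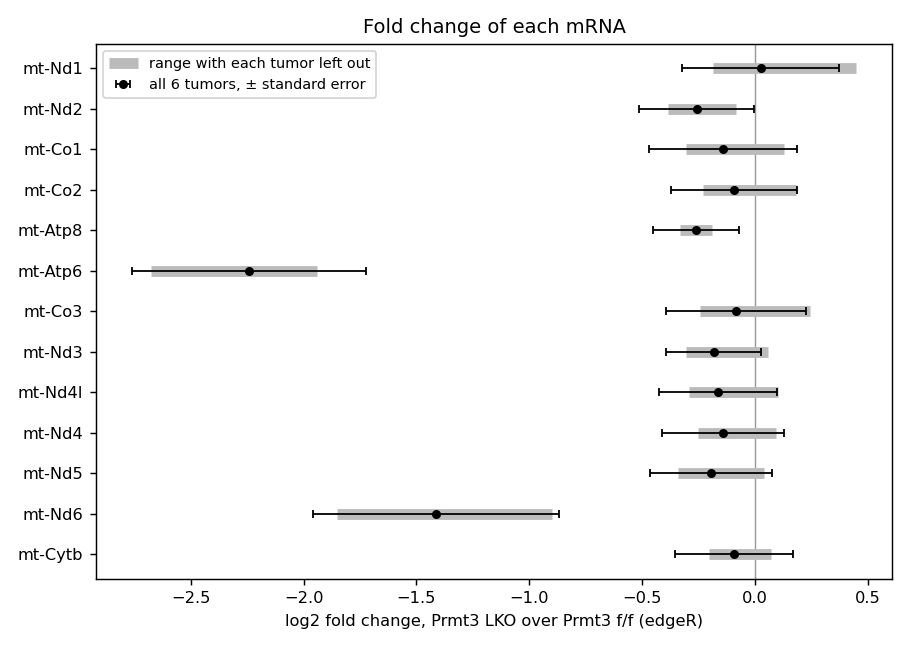
log2 fold change of LKO over f/f tumors for each mRNA (points, with the standard error as bars) from edgeR, and the range of this value when each tumor is left out in turn (grey). mt-Atp6 at -2.24 and mt-Nd6 at -1.41 lie far to the left, and the other 11 lie between -0.26 and 0.026, with grey ranges that cross 0 for 9 of them.

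For complex IV, mt-Co1 was at 23077, 14304 and 13914 CPM in f/f 7, 66 and 71 and at 14807, 12864 and 18866 CPM in LKO 92, 93 and 94. The highest level was in f/f 7 and the lowest in LKO 93, and the groups overlapped. The log2 fold change was -0.14 with a standard error of 0.33. mt-Co2 and mt-Co3, which encode the other mtDNA-encoded subunits of this enzyme, had values of -0.092 (SE 0.28) and -0.083 (SE 0.31). Both were also highest in f/f 7, at 5319 and 6482 CPM, against 3137 to 4191 CPM and 3477 to 5142 CPM in the other tumors. Without f/f 7 the log2 fold changes of mt-Co1, mt-Co2 and mt-Co3 were 0.13, 0.18 and 0.24.

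For complex III, mt-Cytb was at 5073, 3860 and 3474 CPM in the f/f tumors and at 4176, 3065 and 4390 CPM in the LKO tumors. The groups overlapped, with a log2 fold change of -0.093 (SE 0.26), and of 0.072 without f/f 7.

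For complex I, mt-Nd1, mt-Nd2, mt-Nd3, mt-Nd4, mt-Nd4l and mt-Nd5 encode parts of the proton-pumping membrane arm. They had log2 fold changes between -0.26 and 0.026, each with overlapping groups. The 6 were highest in f/f 7. Without it, mt-Nd2 moved from -0.26 to -0.083, mt-Nd1 from 0.026 to 0.45, and mt-Nd3, mt-Nd4, mt-Nd4l and mt-Nd5 to between 0.042 and 0.10. mt-Nd1 was the gene among them that varied most, at 5101, 2690 and 2296 CPM in the f/f tumors and at 2746, 3464 and 4063 CPM in the LKO tumors. Its range of 2.22-fold between the highest and the lowest tumor, both of them f/f, was as wide or wider in 18.2% of the 1186 genes with a mean of at least 100 CPM. Relative to mt-Nd2, its neighbour on the heavy strand, mt-Nd1 was at a ratio of FPKM of 1.12, 0.890 and 0.660 in the f/f tumors and of 0.896, 1.32 and 1.14 in the LKO tumors. These ratios overlapped between groups. mt-Nd4 over mt-Nd4l, which lie on 1 mRNA and share 7 bases, stayed between 0.974 and 1.05 in all tumors. The levels per length of this pair were thus nearly equal in every tumor.

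For complex V, mt-Atp8, which encodes a small membrane subunit of ATP synthase, was at 1729, 1490 and 1473 CPM in the f/f tumors and at 1217, 1262 and 1440 CPM in the LKO tumors. Every LKO tumor lay below every f/f tumor, though LKO 94 and f/f 71 were close. The log2 fold change was -0.26 (SE 0.19), with an unadjusted p of 0.213 in edgeR and an adjusted p of 0.898, and it was -0.19 without f/f 7. mt-Atp6 and mt-Atp8 were the 2 of 13 genes with LKO tumors below all f/f tumors, against 6.6% of all genes, and 0 had them above, against 5.56%.

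mt-Atp6 encodes the membrane subunit of ATP synthase through which protons pass. It was at 830 CPM in f/f 7, 3444 CPM in f/f 66 and 3623 CPM in f/f 71. In LKO 92, 93 and 94 it was at 539, 483 and 646 CPM. Tumor f/f 7 was thus closer to the LKO tumors than to the other f/f tumors, although it had the highest level of mt-Atp8 and of every other heavy-strand gene. The log2 fold change was -2.24 (SE 0.52, unadjusted p = 0.00285), with an adjusted p of 0.592 in edgeR and of 0.00116 in DESeq2. Leaving out each tumor in turn gave -2.68 to -1.94, and without f/f 7 the value was -2.68 with an adjusted p of 0.0993 in edgeR. Of the 1186 genes with a mean of at least 100 CPM, 13 had a range between tumors as wide as the 7.50-fold of mt-Atp6, which is 1.10%, and the median range was 1.60-fold.

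As a share of all mtDNA-encoded counts of the same tumor, mt-Atp6 included, the split was sharper. mt-Atp6 took 1.34% of these counts in f/f 7 (95% Wilson interval 1.32% to 1.35%), 8.10% in f/f 66 and 8.81% in f/f 71. In LKO 92, 93 and 94 it took 1.31%, 1.32% and 1.29%. Tumor f/f 7 and the LKO tumors lay within 0.05 percentage points of each other, and the interval of f/f 7 overlapped those of LKO 92 and LKO 93.

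The genes next to mt-Atp6 on the same transcript did not show this split. The FPKM ratio of mt-Atp6 to mt-Atp8, with which it shares an mRNA, was 0.144, 0.692 and 0.737 in f/f 7, 66 and 71 and 0.133, 0.115 and 0.134 in the LKO tumors. The ratio to mt-Co3, which follows directly and overlaps it by 1 base, was 0.147, 1.05 and 1.20 against 0.153, 0.147 and 0.145. Both ratios thus put f/f 66 and f/f 71 on one side and the other 4 tumors on the other.

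**Figure D4:**
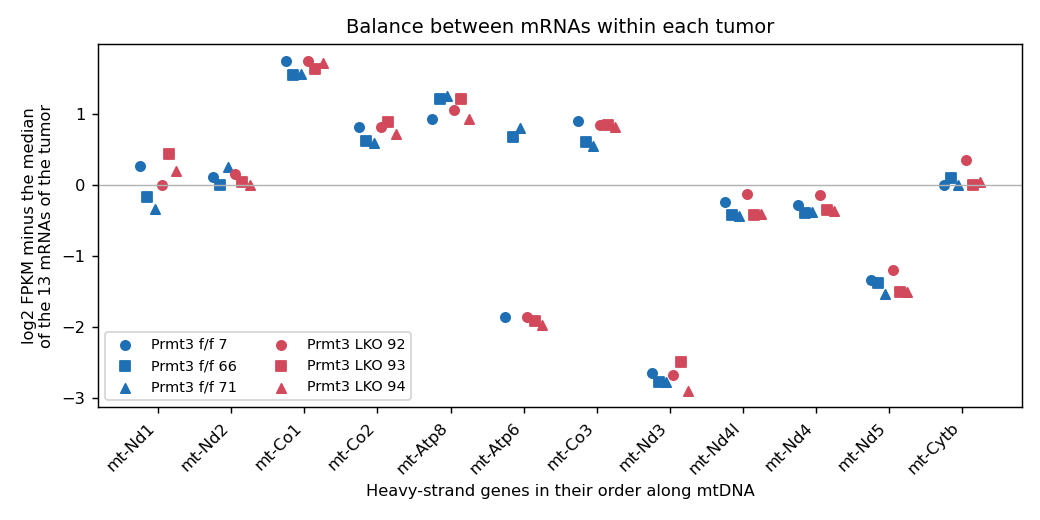
log2 FPKM of each heavy-strand mRNA minus the median of the 13 mRNAs of the same tumor, with genes in their order along mtDNA. For 11 of 12 genes the 6 tumors lie within 0.77 of each other, and mt-Atp6 lies at 0.68 and 0.81 in f/f 66 and f/f 71 and between -1.97 and -1.86 in the other tumors.

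Gm10925, the copy whose sequence is printed with that of mt-Atp6, did not follow it. It was counted 14099, 9529 and 10515 times in the f/f tumors and 7922, 9707 and 10926 times in the LKO tumors, with a log2 fold change of -0.025 (SE 0.24). The count of mt-Atp6 over that of Gm10925 was 1.28 in f/f 7, 7.75 in f/f 66 and 9.80 in f/f 71. In the LKO tumors it was 1.19, 1.10 and 1.18. For mt-Co2, mt-Co3, mt-Nd3 and mt-Nd4l, whose copies have nearly the length of the gene, the same ratio was between 8.58 and 13.5 in every tumor. mt-Atp6 in f/f 66 and f/f 71 thus lay at or just under the ratio of the other pairs, and in the other 4 tumors the count of gene and copy was nearly equal. With each gene summed with its copy, mt-Atp6 had a log2 fold change of -1.59.

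**Figure D5:**
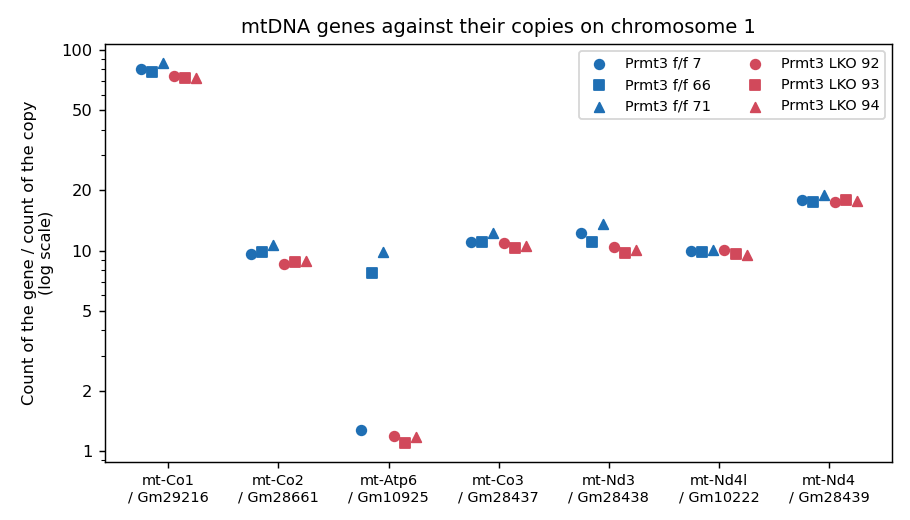
Count of each mtDNA gene divided by the count of its copy on chromosome 1 (log axis) in each tumor. The pair of mt-Atp6 and Gm10925 lies at 7.75 and 9.80 in f/f 66 and f/f 71 and between 1.10 and 1.28 in the other 4 tumors, while each other pair stays within a narrow band.

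Smaller shifts of the same ratio were found in other pairs. It was lower in every LKO tumor than in every f/f tumor for mt-Co1 (77.4 to 86.2 in f/f, 72.6 to 74.6 in LKO), mt-Co2 (9.59 to 10.7 and 8.58 to 8.83), mt-Co3 (11.0 to 12.2 and 10.4 to 10.9) and mt-Nd3 (11.0 to 13.5 and 9.72 to 10.5). For mt-Nd4l and mt-Nd4 the groups overlapped. The 7 copies together took 3.30% to 4.01% as many counts as the 13 genes in the f/f tumors and 4.19% to 4.40% in the LKO tumors. With the copies added to the genes, the difference in the share of the total count was -0.70 percentage points, as without them.

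mt-Nd6, a complex I subunit and the mRNA of the light strand, was counted 278, 48 and 250 times in f/f 7, 66 and 71 and 58, 63 and 56 times in LKO 92, 93 and 94. The f/f tumors thus held both the highest values and the lowest, and the groups overlapped. In CPM the range was 5.73-fold among f/f tumors and 1.18-fold among LKO tumors. The log2 fold change was -1.41 (SE 0.55), with an unadjusted p of 0.0336 in edgeR and an adjusted p of 0.707. This unadjusted p rested on f/f 7, without which it was 0.134 and the log2 fold change -0.90, and it also rose above 0.05 without f/f 71 (0.0730) and without any of the LKO tumors (0.0659 to 0.0854).

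For each count of mt-Nd6 there were 4843, 18994 and 4678 counts of heavy-strand mRNAs in the f/f tumors, and 12412, 12857 and 17759 in the LKO tumors. The log2 ratio of light to heavy strand was -12.9 ± 1.15 (SD, n = 3) in f/f and -13.8 ± 0.285 (SD, n = 3) in LKO tumors, a difference of -0.91, and of -0.59 without f/f 7. The 2 f/f tumors with the higher ratio, f/f 7 and f/f 71, were not the 2 that stood out for mt-Atp6. Libraries were made from mRNA separated from total RNA, and the part of this selection in the ratio was not tested. The 13 listed nuclear transcripts without a poly(A) tail summed to 201, 154 and 197 CPM of the unscaled total in f/f 7, 66 and 71. In LKO 92, 93 and 94 they summed to 159, 143 and 288 CPM. At this depth the share of mt-Nd6 had a 95% Wilson interval of 1.65 to 2.90 CPM of the unscaled total in f/f 66 and of 2.14 to 3.61 CPM in LKO 94, which overlap, and of 11.7 to 14.9 CPM in f/f 7, which lies above both.

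The nuclear partners of these subunits were set beside them, with genes taken by symbol after the values of the mtDNA genes had been seen. Of 71 nuclear genes of complexes I, III, IV and V, 15 were higher in LKO tumors at an unadjusted p under 0.05 in edgeR, against 2.2% of all genes, and 0 were lower, against 4.37%. The log2 fold change was above 0 for 65 of 71, against 50.1% of all genes, with a median of 0.22. 0 of them passed the adjusted p, as for all genes. For ATP synthase, Atp5g3, which encodes subunit c of its membrane ring, was at 153, 134 and 154 CPM in the f/f tumors and at 215, 194 and 210 CPM in the LKO tumors (log2 fold change 0.49, SE 0.15, unadjusted p = 0.0104 and adjusted p = 0.606 in edgeR). Without f/f 7, 22 of 71 were higher at an unadjusted p under 0.05, against 3.99% of all genes, and 67 were above 0, against 48.7%. The kidney markers were also higher in every LKO tumor and the leukocyte markers lower, and their part in this was not tested.

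Together the 71 nuclear genes took 0.560%, 0.478% and 0.557% of the total count in the f/f tumors and 0.607%, 0.565% and 0.651% in the LKO tumors, higher in every LKO tumor. The count of the mtDNA genes over that of the nuclear genes was 11.4, 8.69 and 7.50 in the f/f tumors and 6.43, 6.74 and 7.58 in the LKO tumors, and the groups overlapped. By complex, this ratio overlapped for complexes I, III and IV. For complex V it was 1.25, 2.45 and 2.23 in the f/f tumors and 0.654, 0.831 and 0.777 in the LKO tumors, lower in every LKO tumor. This ratio includes mt-Atp6, counted 73817 and 103030 times in f/f 66 and f/f 71 and 9439 to 17983 times in the other tumors. mt-Atp8 was counted 21295 to 41895 times, and in CPM it was also lower in every LKO tumor than in every f/f tumor. The share of the total count on the nuclear genes of complex V overlapped between the groups. The ratio was not computed without mt-Atp6, so it does not describe complex V as a whole. Copies of the 71 nuclear genes were not searched for, so reads with several alignments may make their counts uncertain too.

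Few genes that make and keep mtDNA transcripts passed an unadjusted p under 0.05 in edgeR. Of 74 such nuclear genes in 5 lists, 3 were higher in LKO tumors at an unadjusted p under 0.05 in edgeR, against 2.2% of all genes, 0 were lower, against 4.37%, and the log2 fold changes had a median of 0.066. In the list of mtDNA transcription (10 genes, 0 past this p), the mitochondrial RNA polymerase Polrmt was at 19.9 ± 4.13 CPM (SD, n = 3) in f/f and 19.3 ± 0.837 CPM in LKO tumors. The packaging and transcription factor Tfam was at 37.9 ± 4.17 and 42.6 ± 1.56 CPM, with every LKO tumor above every f/f tumor by a small margin. The initiation factor Tfb2m was at 13.5 ± 1.78 and 13.2 ± 1.04 CPM and the elongation factor Tefm at 7.52 ± 2.14 and 8.32 ± 1.17 CPM. Their log2 fold changes lay between -0.046 and 0.17.

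In the list of mtDNA replication (13 genes, 0 past this p), the polymerase Polg was at 32.5 ± 7.92 CPM (SD, n = 3) in f/f and 31.4 ± 3.74 CPM in LKO tumors and the helicase Twnk at 21.2 ± 4.70 and 18.1 ± 1.57 CPM. In the list of mtRNA processing and stability (23 genes, 1 higher), Lrpprc, which binds and keeps mitochondrial mRNAs, was at 112 ± 16.2 and 129 ± 0.409 CPM, and its partner Slirp at 6.46 ± 1.30 and 8.04 ± 2.26 CPM. Lrpprc, like Tfam, was higher in every LKO tumor than in every f/f tumor. The gene of this list past the unadjusted p was Pde12, which removes poly(A) from mitochondrial RNAs, at 17.4, 13.3 and 16.1 CPM in the f/f tumors and 20.4, 24.3 and 19.6 CPM in the LKO tumors (log2 fold change 0.46, SE 0.17, adjusted p = 0.684 in edgeR). In the list of translation factors (18 genes), it was Tsfm, an elongation factor of mitochondrial translation, at 8.40, 8.21 and 8.58 CPM against 11.8, 11.9 and 11.3 CPM (log2 fold change 0.47, SE 0.14, adjusted p = 0.620 in edgeR). In the list of biogenesis regulators (10 genes), it was the nuclear receptor Esrra, at 26.5, 25.1 and 30.8 CPM against 36.5, 33.4 and 36.9 CPM (log2 fold change 0.38, SE 0.14, adjusted p = 0.684 in edgeR). Its coactivator Ppargc1a was at 9.29 ± 4.77 and 8.46 ± 3.20 CPM (SD, n = 3). Of the 74 genes, those higher in every LKO tumor were Tfam, Mterf3, Dguok, Lrpprc, Pde12, Tsfm, Mtrf1l, Mrm2 and Esrra, against 5.56% of all genes. No gene of the lists was lower in every LKO tumor, against 6.6% of all genes.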

How the data were processed

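RNA was sequenced from 1 library for each of the 6 tumors, from mRNA separated from total RNA. Paired-end reads of 150 bases were aligned to GRCm38 with HISAT2 2.0.4, and the submitters' processing notes also list bcl2fastq 2.19 and StringTie 1.3.0. The counting tool, annotation release, strand setting and treatment of multiply aligned reads are not given in the sources used here. The authors deposited a count for each gene and tumor, which is not normalized. The authors also deposited FPKM values, which divide the count by gene length and by the total count. All 12 columns of values were used.

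Groups were taken from the genotype labels. Counts were filtered with filterByExpr (minimum count 10, minimum total 15), scaled by TMM and compared by edgeR (4.0.16, R 4.3.3) with its quasi-likelihood test. P-values were adjusted by Benjamini-Hochberg over all 13892 genes, and calls required an adjusted p under 0.05 and a fold of 2 or more, or 0.5 or less. Sums and ratios over genes are given per tumor, with no test. On simulated counts with 4-fold changes, this test recovered 166 of 194 changed genes among 13676 tested, with 16 false calls, and DESeq2 recovered 177 with 45 false calls. The simulated tumors of each group shared a common mean for each gene, so none stood apart as f/f 7 did. These numbers therefore do not give the recovery in the real tumors. There the same test did not call Prmt3 itself (log2 fold change -1.55, adjusted p = 0.592 in edgeR). Alternatives were DESeq2 1.42.0, limma-voom (limma 3.58.1), other scalings and filters, FPKM with a pseudocount of 1, and each tumor left out in turn. Gene sequences and their copies were compared with the transcripts of GENCODE M21, with matches of at least 95% identity over 100 bases kept.

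With 3 counts as the limit, a count of 0 leaves room for 0.107 to 0.163 CPM of the unscaled total. The number of tumors, 3 per group, limits the precision. All members are named, as are 9 nuclear genes of mtDNA expression and those of its lists at an unadjusted p under 0.05. Genes of these lists that were higher in every LKO tumor are also named. The 74 nuclear list genes were matched by symbol, 3 of them through an older symbol of the same Ensembl identifier, including Twnk, listed as Peo1. Members and lists were chosen with earlier results of these data known. The nuclear subunit genes, the copies on chromosome 1, and the values without mt-Atp6 were added after seeing the data, and Atp5g3 was named after its value was seen.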

Additional observations from a re-analysis of the deposited data

How the results depend on the processing

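The number of mtDNA-encoded genes called was 0 with all tumors and 0 with any tumor left out (0 to 0), 1 with DESeq2 and 2 at an unadjusted p under 0.05 without a fold limit. The 3 nuclear genes of mtDNA expression at an unadjusted p under 0.05 became 1 without f/f 66, and between 1 and 4 over the tumors left out. The difference in the share of the total count, -0.70 percentage points, ranged from -1.08 to 0.046 with each tumor left out, the last without f/f 7. As a share of summed FPKM it was -2.04 percentage points, on a larger base. The means were 14.2% in f/f and 12.1% in LKO tumors by FPKM, against 4.91% and 4.21% by counts. The groups overlapped in both. The difference of the log2 ratio of light to heavy strand, -0.91, ranged from -1.57 to -0.56. The log2 fold changes of mt-Atp6 and mt-Nd6 kept their sign in all alternatives, -2.68 to -1.59 and -1.85 to -0.90.

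With each tumor left out, the log2 fold change ranged from -0.30 to 0.13 for mt-Co1, -0.23 to 0.18 for mt-Co2, -0.25 to 0.24 for mt-Co3, -0.20 to 0.072 for mt-Cytb, -0.30 to 0.058 for mt-Nd3, -0.25 to 0.091 for mt-Nd4, -0.29 to 0.10 for mt-Nd4l, -0.34 to 0.042 for mt-Nd5, -0.18 to 0.45 for mt-Nd1, -0.38 to -0.083 for mt-Nd2 and -0.33 to -0.19 for mt-Atp8. The first 8 turned above 0 without f/f 7, mt-Co3 (0.0072) and mt-Cytb (0.052) also without LKO 93, and mt-Nd1, 0.026 with all tumors, turned below 0 without f/f 66 (-0.11), f/f 71 (-0.18) or LKO 94 (-0.11). The cause was not tested. The balance of rRNA to mRNA, the share of tRNAs, and the share of mRNAs without rRNAs and tRNAs were planned but not run, since only mRNA genes were matched. No paired analysis was possible because the groups share no replicate number. The share with the chromosome 1 copies added and the values without mt-Atp6 were chosen after seeing the data.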
